A study of Mus musculus with 2 samples.

Results

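The costimulatory genes examined here are 10 genes of the B7 and CD28 families, 5 ligands of antigen-presenting cells (Cd80, Cd86, Icosl, Cd274 and Pdcd1lg2) and 5 receptors of T cells (Cd28, Icos, Ctla4, Pdcd1 and Btla), out of 22350 protein-coding genes on chromosomes 1 to 19 and X. The rule is this list of names. For each, the DNase I hypersensitive sites (DHS) overlapping its window, the gene body and 50 kb on either side, were taken, 85 of the 47474 DHS on these chromosomes. All 10 genes were found once each in the annotation. Splenic B cells were obtained from 8-week-old C57/Bl6 mice with genotype Trp53+/+ and mock treatment, by magnetic enrichment with B220 beads, and their nuclei were digested with DNase I, which cuts accessible DNA. The series holds 1 DNaseI library and 1 input library without replicates, and only the DNaseI library enters here, as a list of peaks with a score each. The sex and the number of the animals, and whether animals were pooled, are not given in the sources used here. Each window thus has a single value, and every comparison is a description without a test.

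T cells need a second signal besides the antigen. CD80 and CD86 on the antigen-presenting cell bind CD28, which activates the T cell, and CTLA-4, which restrains it. ICOS ligand, encoded by Icosl, binds ICOS and is central to the help that follicular T cells give to B cells. PD-L1, encoded by Cd274, and PD-L2, encoded by Pdcd1lg2, bind the inhibitory receptor PD-1, encoded by Pdcd1. BTLA is an inhibitory receptor that B cells carry as well as T cells, and its ligand is HVEM, encoded by Tnfrsf14. Resting B cells present antigen poorly and raise CD80 and CD86 when activated.

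The windows of the ligand genes held more DHS than those of the receptor genes. The ligand windows, which form 4 separate stretches of 616.6 kb in all, held 63 DHS, or 10.2 per 100 kb (95% Poisson interval 7.85 to 13.1). The receptor windows, 4 stretches of 612.7 kb, held 22, or 3.59 per 100 kb (2.25 to 5.44). The ratio was 2.85 (1.73 to 4.86), and no DHS lay in windows of both groups. These intervals cover counting error only, and neighbouring DHS are not independent. Those are pooled densities. The median density of single genes was 11.6 DHS per 100 kb for the ligands, 3.27 for the receptors and 3.38 for all protein-coding genes. DHS covered 9.74% of the ligand windows and 3.67% of the receptor windows.

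Many of the ligand DHS lay nearer to other genes. Each DHS was also assigned to the protein-coding gene whose transcription start site (TSS) lay nearest to its centre. A ligand held the nearest TSS for 30 of the 63 DHS, and another gene for 33, or 52.4%. In the receptor windows 21 of the 22 DHS were nearest to a receptor. The ligand windows also held more sequence that is nearest to other genes, 53.3% of their length against 11.4% in the receptor windows. Within the 288.2 kb nearest to a ligand, the density was 10.4 DHS per 100 kb (7.02 to 14.9), and within the 543 kb nearest to a receptor it was 3.87 (2.39 to 5.91). The ratio of these was 2.69 (1.49 to 4.95), close to that of the whole windows, and was added after the values were seen. The planned ratio, with the same DHS over the full window lengths, was 1.42 (0.786 to 2.61), an interval that includes 1. The rest of the ligand windows had 10.05 DHS per 100 kb (6.92 to 14.1), and the rest of the receptor windows, 69.7 kb with 1 DHS, had 1.43 (0.0363 to 7.99). The ratio there was 7.01 (1.17 to 285), with an interval that the single DHS leaves wide. The neighbours with the most DHS were C030046E11Rik with 10, and Ildr1 and 5033414D02Rik with 6 each.

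The groups overlapped in the density of single genes. Among the ligands the density ran from 7.40 DHS per 100 kb at Cd86 through 8.04 at Cd80, 11.6 at Cd274 and 12.3 at Icosl to 13.1 at Pdcd1lg2. Among the receptors it ran from 1.28 at Cd28 through 1.75 at Pdcd1, 3.27 at Icos and 6.22 at Btla to 7.76 at Ctla4, which was above Cd86 and just below Cd80. The Poisson intervals of neighbours in this order overlapped in every case. The order is that of the 50 kb flank, and densities of single genes were not recomputed for others. With a flank of 10 kb, Pdcd1lg2 went from 21 DHS to 4 and Ctla4 from 10 to 3, while Btla went from 8 to 6. Each of the 10 windows held at least 2 DHS, and a window with any DHS was found for 77.0% of all protein-coding genes.

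**Figure D1:**
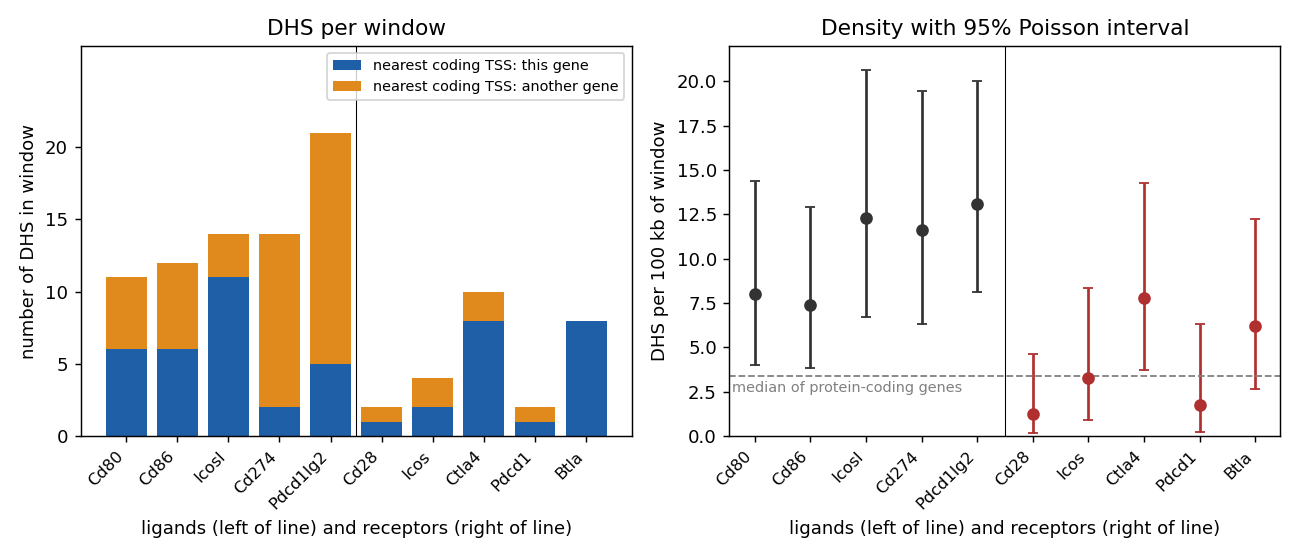
Number of DHS in each window, split by whether the nearest protein-coding TSS is that of the gene itself (left), and DHS per 100 kb of window with its 95% Poisson interval (right), for the 5 ligand and the 5 receptor genes in 1 DNaseI library. The dashed line is the median of protein-coding genes, 3.38; all 5 ligands lie above it, as do Ctla4 and Btla, and most DHS at Cd274 and Pdcd1lg2 are nearest to other genes.

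At promoters, which here reach 5 kb upstream and 2 kb downstream of each annotated TSS of a gene, 4 of the 5 ligands and 1 of the 5 receptors had a DHS. The exact binomial intervals of 28.4 to 99.5% and 0.505 to 71.6% overlapped, and 57.0% of all protein-coding genes had a promoter DHS. The highest promoter score, the value that the peak caller gave each DHS on a scale that is not stated, was 259 at Icosl, 116 at Cd274, 70.5 at Cd86 and 35.4 at Cd80. The DHS with 116 was centred at a start site of 5033414D02Rik, and the DHS over the TSS of Cd274 scored 70.7. The 1 receptor was Btla, with 122, so that its score was above those of all ligands except Icosl. None was called at Pdcd1lg2, Cd28, Icos, Ctla4 and Pdcd1. Among protein-coding genes with a promoter DHS the median of this score was 101 (quartiles 59.0 and 152).

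At the start site and over the gene body DHS were called at more ligands than receptors, on 5 genes each and without an interval. A DHS over a TSS is by construction also a promoter DHS, so these counts are not separate from those above. A DHS covered an annotated TSS of Cd86, Icosl and Cd274 among the ligands and of Btla among the receptors, against 46.6% of protein-coding genes. From a TSS of the others, the nearest edge of a DHS was 1141 bp away at Cd80, 6728 bp at Ctla4, 7159 bp at Pdcd1lg2, 16158 bp at Pdcd1, 22330 bp at Icos and 58997 bp at Cd28. Over all protein-coding genes the median distance was 109 bp. A DHS overlapped the gene body of all 5 ligands and of Ctla4 and Btla, against 57.9% of protein-coding genes. No DHS was called over the bodies of Cd28, Icos and Pdcd1.

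**Figure D2:**
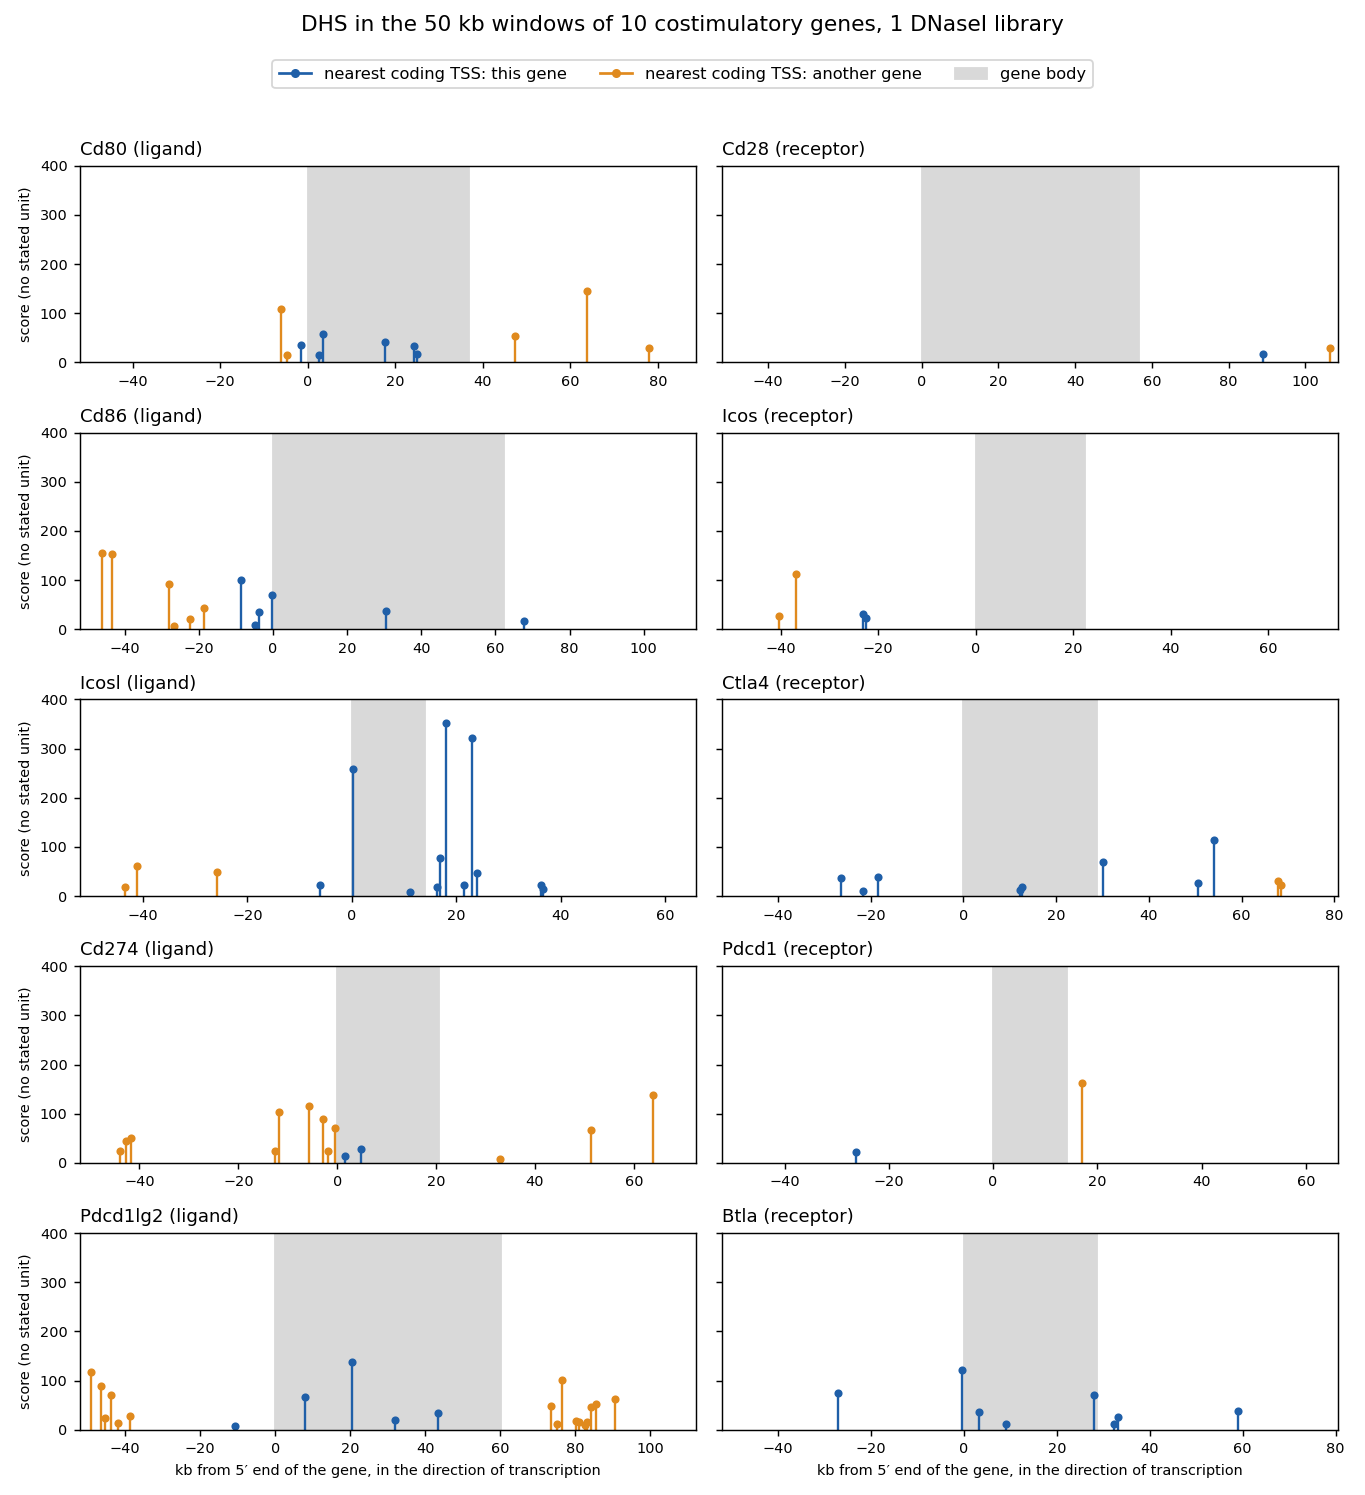
Score of every DHS against the distance of its centre from the 5′ end of the gene in kb, for each ligand (left column) and receptor (right column), with the gene body in grey and stems coloured by whether the gene itself holds the nearest protein-coding TSS. The highest stems, at 353, 322 and 259, are all at Icosl, while Cd28, Icos and Pdcd1 have none over the gene body.

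Icosl (ENSMUSG00000000732.7, chromosome 10, 77532105 to 77546000, plus strand, mm9) held the 3 DHS with the highest scores of the ligand and receptor windows, while 7 of the 14 DHS in its window reached the median score of the list, against 8 of 12 at Cd86. Of the 14 DHS, 11 were nearest to its TSS, a number that 96.8% of protein-coding genes did not reach. Some DHS lay close together, and with peaks closer than 500 bp merged the window held 9. The promoter DHS of 1620 bp at chr10:77531499-77533118 covered the TSS and an exon, and its score of 259 was above that of 98.4% of all DHS. The 2 highest-scoring DHS of all 10 windows lay past the 3′ end of the gene in intergenic sequence, at 353 (chr10:77549346-77550686) and 322 (chr10:77554692-77555603). Their centres were 17911 and 23042 bp from the gene start. Only 1 DHS overlapped the gene body beyond the promoter, in an intron, with a score of 8.77. The other 3 DHS of the window were nearest to Aire, the regulator of self-antigen expression in the thymus, and scored 19.2, 61.6 and 49.8.

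To show what lies under the DHS, the central 300 bp of the highest-scoring DHS nearest to a gene were read from the plus strand of mm9. The file gives no summits, so the centre of the interval need not be the point of most cutting. Words of B cell transcription factors were searched on both strands. The words were GAGGAAG for PU.1 and other Ets factors, GGAANNGAA for the joint element of Ets and IRF factors, GAAANNGAA for interferon-stimulated elements, TGTGGT for Runx, TGANTCA for AP-1, GGGANTTCC for NF-kappaB and CNAGGNGGC for CTCF. They may overlap each other, and a match is a description of the letters and not a binding site. Cut in the same way, 14.2% of all DHS held the PU.1 word, 9.31% the joint Ets and IRF word, 9.27% the interferon word, 20.6% the Runx word, 7.62% the AP-1 word, 1.5% the NF-kappaB word and 8.21% the CTCF word. The E-box word CANNTG, in 77.6% of DHS, is not marked. The first sequence is the Icosl DHS with the score of 353, at chr10:77549867-77550166, with a PU.1 word and a joint Ets and IRF word in capitals.
Icosl: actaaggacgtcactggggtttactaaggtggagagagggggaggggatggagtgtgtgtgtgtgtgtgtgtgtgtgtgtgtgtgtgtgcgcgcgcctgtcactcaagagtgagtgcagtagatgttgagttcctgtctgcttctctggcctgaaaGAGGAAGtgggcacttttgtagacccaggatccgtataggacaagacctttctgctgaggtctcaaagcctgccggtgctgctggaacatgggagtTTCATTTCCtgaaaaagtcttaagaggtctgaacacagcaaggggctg

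Cd86 (ENSMUSG00000022901.6, chromosome 16, 36603955 to 36666167, minus strand) encodes a B7 molecule that antigen-presenting cells raise early on activation. Its window held 12 DHS, of which 6 were nearest to Cd86. A DHS of 2012 bp over the TSS (chr16:36665431-36667442) scored 70.5, and further DHS at 3661 and 4815 bp upstream of the gene start scored 35.6 and 8.14. The highest-scoring DHS nearest to Cd86 was neither of these but an intergenic one 8527 bp upstream, at 99.2. Inside the gene a single intronic DHS scored 37.5. The remaining 6 DHS were nearest to Ildr1 and reached 155, more than any nearest to Cd86. The central sequence of the upstream DHS, at chr16:36674545-36674844, is shown because, among the highest-scoring DHS nearest to each gene, it was the only one with more than 1 interferon word. In capitals are a PU.1 word and a pair of overlapping interferon words, all on the minus strand.
Cd86: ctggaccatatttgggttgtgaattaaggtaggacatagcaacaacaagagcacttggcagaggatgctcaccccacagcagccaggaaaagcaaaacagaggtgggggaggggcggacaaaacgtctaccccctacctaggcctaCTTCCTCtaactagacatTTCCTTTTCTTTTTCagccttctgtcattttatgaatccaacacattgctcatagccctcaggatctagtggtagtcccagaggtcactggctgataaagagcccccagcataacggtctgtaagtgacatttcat

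Cd80 (ENSMUSG00000075122.3, chromosome 16, 38459013 to 38495821, plus strand), the partner of Cd86, had a lower top score. Of 11 DHS in its window 6 were nearest to Cd80, and these scored from 15.9 to 58.7. No DHS covered a TSS of Cd80. The promoter window held DHS with centres 1555 and 4799 bp upstream of the gene start, with scores of 35.4 and 15.3, and the second was nearer to the TSS of Adprh. Neither lay within 1 kb of a TSS. The gene body carried 5 DHS, and the highest of them, 58.7, was in an intron with its centre 3500 bp from the gene start. The other 4 scored 15.9, 42.0, 33.8 and 16.3, and only that at 33.8 touched an exon. The higher scores of the window, 109 and 145, belonged to DHS at the start sites of Adprh and 4930455C21Rik.

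Cd274 and Pdcd1lg2, the genes of PD-L1 and PD-L2, are neighbours on chromosome 19, so that their windows overlap and share 9 DHS. Cd274 (ENSMUSG00000016496.7, 29441945 to 29462585, plus strand) had 14 DHS, of which 5 were at its promoter. The DHS over its TSS (chr19:29440528-29442474) was 1947 bp wide and scored 70.7. It also covered an exon of 5033414D02Rik, whose start site was nearer to its centre. The promoter DHS with the highest score, 116, had its centre 22 bp from a start site of 5033414D02Rik and 5609 bp from that of Cd274. Between these lay promoter DHS at 89.8 and 24.5, both likewise nearest to 5033414D02Rik. Cd274 itself was nearest for only 2 DHS, both over its body, with scores of 14.4 at the promoter and 27.4 beyond it.

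Pdcd1lg2 (ENSMUSG00000016498.9, 29485409 to 29545647, plus strand) combined the most DHS of any window, 21, with no DHS at its promoter. Of all protein-coding genes 98.3% had fewer. The count fell to 4 with a flank of 10 kb, below the 9 of Icosl, 8 of Cd80 and 6 each of Cd86, Cd274 and Btla, and 5 of the 21 were nearest to Pdcd1lg2. Within the gene body 4 DHS were called, at 66.3, 139, 19.2 and 34.9. The strongest, at chr19:29504947-29506893, lay in an intron with its centre 20511 bp from the gene start. Another 10 DHS lay past the 3′ end, in and near A930007I19Rik, with scores from 8.58 to 101. The central sequence of the intronic DHS, at chr19:29505771-29506070, is shown as the strongest one nearest to a gene of the PD-1 pathway, and holds a CTCF word on the minus strand, in capitals.
Pdcd1lg2: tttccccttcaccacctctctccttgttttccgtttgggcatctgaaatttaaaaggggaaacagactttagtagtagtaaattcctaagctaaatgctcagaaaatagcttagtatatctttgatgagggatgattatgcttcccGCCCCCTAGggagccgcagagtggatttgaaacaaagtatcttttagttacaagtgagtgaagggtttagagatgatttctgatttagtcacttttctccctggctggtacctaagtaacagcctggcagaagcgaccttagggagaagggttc

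Among the receptors, Btla (ENSMUSG00000052013.7, chromosome 16, 45224428 to 45253008, plus strand) had the only promoter DHS. All 8 DHS in its window were nearest to Btla, a number above that of 93.9% of protein-coding genes, while Ctla4 held the nearest TSS for 9, above 95.3%. The promoter DHS (chr16:45222575-45225422) covered the TSS, scored 122 and was the widest DHS of the 10 windows, at 2848 bp. The gene body held 3 more, at 36.9, 11.4 and 69.9, the last over an exon at the 3′ end. A DHS 27134 bp upstream scored 73.9. The density of the Btla window was 2.15 times (0.782 to 5.50) that of the other receptors together, an interval that includes 1. The central sequence of the promoter DHS, at chr16:45223849-45224148, lies upstream of the gene start and is shown as the only promoter DHS of a receptor. None of the words searched, E-box included, occurred in it.
Btla: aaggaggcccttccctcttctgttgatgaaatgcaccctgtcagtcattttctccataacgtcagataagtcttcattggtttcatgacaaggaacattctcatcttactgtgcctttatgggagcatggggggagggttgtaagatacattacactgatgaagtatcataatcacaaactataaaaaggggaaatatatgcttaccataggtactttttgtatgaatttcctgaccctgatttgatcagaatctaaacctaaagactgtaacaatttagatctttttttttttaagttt

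Ctla4, Icos and Cd28 lie next to each other on chromosome 1 and showed DHS mostly outside the genes, with 2 of the 12 DHS in their windows over a gene body. Ctla4 (ENSMUSG00000026011.6, 60943844 to 60972676, plus strand), the inhibitory receptor for CD80 and CD86, had 10 DHS in its window and none at its promoter. Within the gene body 2 intronic DHS scored 12.6 and 18.4. A DHS of 2219 bp began 67 bp past the 3′ end of the gene (chr1:60972743-60974961) and scored 68.2. The highest score of the locus, 113, was that of an intergenic DHS between Ctla4 and Icos (chr1:60997072-60998759), 31900 bp from the nearest start site of Ctla4 and 36856 bp upstream of Icos. It is also the highest in the window of Icos, since the windows of both genes share 4 DHS.

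Icos (ENSMUSG00000026009.8, 61034771 to 61057164, plus strand) had 4 DHS in its window, all upstream, and the 2 nearest to its own TSS scored 30.6 and 22.1. Cd28 (ENSMUSG00000026012.2, 60773644 to 60830203, plus strand), the main activating receptor, had 2, both past its 3′ end, with scores of 16.6 and 28.7. The latter was nearer to Ctla4. No DHS within 50 kb upstream of Cd28 or over its body was called. Pdcd1 (ENSMUSG00000026285.6, chromosome 1, 95934884 to 95949130, minus strand) had 2 as well. One of them scored 163, above 94.2% of all DHS and above any other in the receptor windows, and lay 1912 bp past the 3′ end of Pdcd1 in intergenic sequence, with Neu4 as the nearest start site. The other lay 26383 bp upstream and scored 21.6.

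Taken over the windows, the DHS of both groups were of similar size, and more of the receptor DHS were intergenic. The median width was 867 bp in the ligand windows and 872.5 bp in the receptor windows, against 760 bp in the whole list. The median score was 37.5 and 29.6, against 32.65. Of the ligand DHS 24 (38.1%, exact interval 26.2 to 51.2) overlapped a promoter of any gene, 11 of them one of a ligand, and 5 were exonic, 17 intronic and 17 (26.98%, 16.6 to 39.7) intergenic away from promoters. Of the receptor DHS 4 (18.2%, 5.19 to 40.3) overlapped a promoter, so that the intervals of the promoter shares overlapped, and 15 (68.2%, 45.1 to 86.1) were intergenic. In the whole list 47.5% overlapped a promoter, 5.15% were exonic, 21.7% intronic and 25.7% intergenic.

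The base composition of the start sites was low in CpG in most of these genes. In the 1000 bp around the 5′ end, only Icosl was CpG-rich by the criteria of 55% GC or more and a CpG count of 0.6 or more times the one expected from base composition, with 64.8% and a ratio of 0.715. Among protein-coding genes 38.5% were. Cd274 had a ratio of 0.557 with 47.2% GC, and Pdcd1 had 56.7% GC with a ratio of 0.212. The other ratios ran from 0.16 at Cd28 to 0.354 at Ctla4. Both Btla, at 0.196, and Cd86, at 0.315, had a DHS over the start site, and Ctla4 did not.

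The words searched were counted over the central 300 bp of all 85 DHS, of which many share a locus. The interferon word was in 11 of 63 ligand DHS (17.5%) and 3 of 22 receptor DHS (13.6%), against 9.27% of the whole list. The AP-1 word was in 9 (14.3%) and 4 (18.2%), against 7.62%. The joint Ets and IRF word was in 9 (14.3%) and 3 (13.6%), against 9.31%. The PU.1 word was in 14.3 and 18.2%, against 14.2%, and the Runx word in 17.5 and 22.7%, against 20.6%. The CTCF word was in 6 ligand DHS (9.52%) and in 0 of 22 receptor DHS, which allows up to 15.4% by the exact interval, against 8.21%. The NF-kappaB word was in 1 DHS of each group.

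Further genes of costimulation were examined in the same way. Their windows did not repeat the contrast in density of the members, with medians of 6.49 DHS per 100 kb on the ligand side and 5.39 on the receptor side, against 11.6 and 3.27 for the members. On the ligand side 9 of 11 had a promoter DHS (81.8%, exact interval 48.2 to 97.7), and Vtcn1 and Cd70 had none. The highest promoter score, 180, was at 4632428N05Rik, which encodes the checkpoint molecule VISTA. Tnfrsf14, the gene of the BTLA ligand HVEM, had 37.5, and Tnfsf4, the gene of OX40 ligand, had 11.3, the lowest. On the receptor side 4 of 10 had one (40%, 12.2 to 73.8), with 140 at Tnfrsf9, the gene of 4-1BB, 53.4 at Tnfrsf18, the gene of GITR, 27.7 at Cd160 and 20 at Cd244. Tnfrsf9 had 4 promoter DHS but held the nearest TSS for only 2 DHS. Not all of the 4 were thus nearest to it, and whether the one at 140 was is not given here. Tnfrsf4, Cd27, Tigit, Cd226, Lag3 and Havcr2 had no promoter DHS. These shares can be read against the 57.0% of all protein-coding genes, and the intervals of both sides overlapped.

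**Figure D3:**
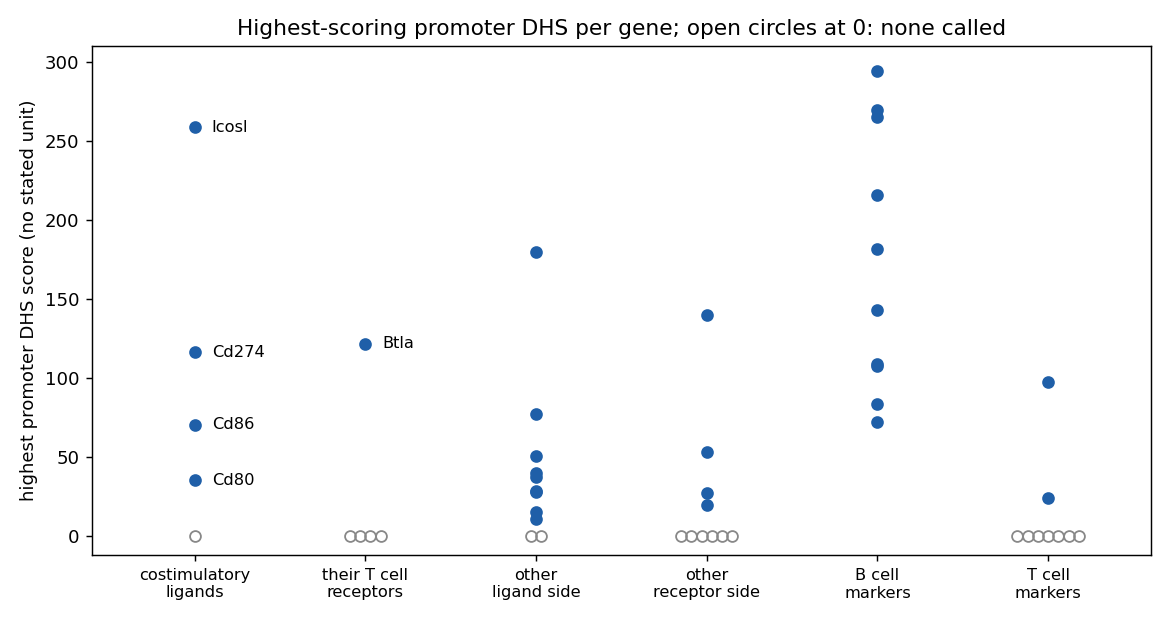
Highest score of a promoter DHS for each gene of 6 lists in 1 DNaseI library, with open circles at 0 for genes without a promoter DHS. Among the receptors only Btla, at 122, has one, whereas all 10 B cell markers lie between 72.1 and 294.

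The labelled cell type was checked on markers, to be read against the 57.0% of protein-coding genes with a promoter DHS. All 10 B cell genes had one (100%, exact interval 69.2 to 100), with a median top score of 163. Of the 9 T cell markers reported 2 had one (22.2%, exact interval 2.81 to 60.0), Cd5 at 97.7 and Lat at 24.5, and Cd3e, Cd3d, Cd3g, Cd4, Cd8a, Cd8b1 and Zap70 had none. Of the other cells that a spleen preparation can hold, 2 of 5 natural killer cell markers had one (40%, 5.27 to 85.3, highest score 26.0), 3 of 6 of macrophages and monocytes (50%, 11.8 to 88.2, highest 51.1) and 2 of 6 of dendritic cells (33.3%, 4.33 to 77.7, highest 46.8). The intervals of these lists and of the T cell list include the 57.0%, and that of the B cell list lies above it. Siglech, a marker of plasmacytoid dendritic cells, which carry B220 themselves, had none. The part of such cells in the DHS of the costimulatory genes was not tested. A DHS in a minor population and a weaker DHS in all cells cannot be told apart in a bulk library. The depth of the library is unknown, so a gene without a DHS is one where none was called.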

How the data were processed

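DNase I digested DNA of splenic B cells was sequenced as 1 library. The submitters' processing notes list BWA 0.6.2, SAMtools and the mm9 build. The peaks carry MACS names, and the caller's version, settings, control and filters for this library are not given in the sources used here. The authors deposited 1 peak list of 47542 DHS, with positions in mm9 and a score per peak. The scale of the deposited score is not stated, and it was used only to rank, describe and filter. Read counts are not part of the list, so depth is unknown. The input library was not analysed here.

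Overlaps of at least 1 bp were computed in Python 3.11.15 (numpy 2.4.6, scipy 1.17.1, matplotlib 3.10.9) with GENCODE M1, which is on the same assembly. Code was tested on simulated intervals. The 68 DHS off chromosomes 1 to 19 and X were left out. Positions count from 1. Poisson, conditional Poisson and binomial intervals are exact, at the 95% level. All 10 genes are named, with every DHS at their promoters, over their bodies, and the highest in each window. The promoter window is that of the study. 1 gene of the T cell list is not reported here, for a reason unrelated to its value. Of the central sequences, 4 are shown. Members, lists, words and the alternatives for the groups were chosen with earlier results of these data known, and 1 further density ratio and the alternatives for single genes after the values were seen.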

Additional observations from a re-analysis of the deposited data

How the results depend on the processing

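With 1 library and no replicates, no test, and no replicate to leave out, values were recomputed under other settings. Keeping DHS at or above the median score of 32.65 left 36 DHS in the ligand and 10 in the receptor windows, and a flank of 10 kb left 33 and 10; in both settings fewer DHS or bases enter by construction. Counting only DHS nearest to a gene of the group left 30 ligand DHS and a density ratio of 1.42 over the full window lengths. Its interval, 0.786 to 2.61, includes 1, and the ratio falls by construction where windows hold more start sites of other genes. Divided by the length nearest to the group, an alternative chosen after seeing the data, the ratio was 2.69. Without Btla the receptor windows held 14 DHS, and 0 of 4 receptors had a promoter DHS, which leaving out the only one fixes. The other 23 of 31 recomputed values stayed within their interval or within 1.5 times, and none changed direction. Among these, merging peaks closer than 500 bp left 46 ligand and 19 receptor DHS and a density ratio of 2.41. For single genes, in settings added after the data were seen, 24 of 50 counts stayed within 1.5 times. The promoter of Cd80 had no DHS within 1 kb of a start site. Unknown depth limits every statement on a missing DHS. No paired analysis was possible because each group of the labels holds 1 sample.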

Other observations

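A promoter DHS was called at 2 of the 9 T cell markers reported (exact interval 2.81 to 60.0%) and at 1 of the 5 receptors (0.505 to 71.6%), and both intervals include the 57.0% of all protein-coding genes. The median density of the T cell marker windows was 5.79 DHS per 100 kb, against 3.27 for the 5 receptors, 11.6 for the 5 ligands, 11.0 for the B cell markers, 6.49 and 5.39 for the other costimulatory genes of the ligand and receptor side, and 3.38 over all protein-coding genes. Cd4 had 13 in its window and none over its body or promoter, and was the nearest protein-coding gene for 1. At Cd8a no DHS was called in the window.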
